A study of Mus musculus with 6 samples.

Results

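The genes described here are 8 genes of the glia of the eye, chosen by name for their use as markers of Müller glia and astrocytes (Glul, Rlbp1, Slc1a3, Gfap, Apoe, Pax2, S100b and Car2). A gene was represented by the array probe sets whose annotation names it alone, and among these by the one with the highest mean over all arrays. On that rule 7 of the 8 genes were measured, of 12393 genes in all, by 12 probe sets. Pax2, a transcription factor of the optic stalk and of optic nerve astrocytes, had no such probe set and was not analysed here. The arrays hold RNA of single whole eyeballs from pups on postnatal day 1 on a mixed strain background, 3 from Brg1 cKO pups and 3 from wild-type pups. Brg1 cKO pups are homozygous for a floxed allele of Brg1 (Smarca4, the motor subunit of SWI/SNF complexes, which move nucleosomes) and carry the Le-Cre transgene. Le-Cre is active in the head surface ectoderm, from which lens, cornea and eyelid epidermis arise, and the glia and neurons of the retina are not among its targets. The study describes incomplete deletion and a variable phenotype in these mutants, including small eyes and misfolded retinas. It also reports that Brg1 was at times deleted in the germline, and does not say whether the arrayed pups were affected. Retinal cells of such pups could carry a deleted allele. The labels call the other pups wild type, and the methods describe them as littermates of the same stage. The study states that it took Brg1 flox/flox mice as controls in its work on these mutants, so that the wild-type pups may carry the floxed alleles without Cre. No Le-Cre control was arrayed, so that effects of the transgene and of Brg1 loss cannot be told apart.

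Müller glia span the retina and take up glutamate, recycle visual pigment, buffer ions and pH, and supply lipid particles to neurons. They are the last retinal cell type to be born, most of them after birth in the mouse, and late retinal progenitors already express many of their genes. Astrocytes differ in origin. They migrate from the optic nerve into the inner retina around birth, and at this age they are the main source of Gfap, which adult Müller glia produce after injury. Gliosis is the name for this reaction, and a rise of Gfap is its usual sign. The comparison asks whether glial genes, the Gfap filament gene above all, differed between eyeballs that had lost Brg1 in their surface ectoderm and wild-type eyeballs.

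None of the 7 measured genes passed the test, and in all 7 the values of the 2 genotypes overlapped. Of all 12393 genes, 14.8% had genotypes that did not overlap, so that overlap in all 7 is near the background. The differences (Brg1 cKO minus wild type) lay between -0.45 for Car2 and 0.55 for Gfap on the log2 scale, with a median of 0.11, beside a median of 0.02 over all 12393 genes. Adjusted p-values reached from 0.66 to 0.997 in limma, a linear model of each probe set with Benjamini-Hochberg adjustment over all 22626 probe sets. At an adjusted p under 0.05, 0.694% of the 12393 genes were called. At an unadjusted p under 0.05, 0 of the 7 genes were called as well, beside 9.3% of all genes (5.56% higher and 3.74% lower in Brg1 cKO). Template matching, the selection used in the study, was run again on the deposited values and gave 820 probe sets. The study reports a larger number of genes by this selection, and why the numbers differ was not tested. Here it called 0 of 7 genes, beside 3.62% of all probe sets. At such shares a count of 0 among 7 genes is near the background. For Glul, Rlbp1, Slc1a3, Apoe and Car2 the 95% confidence interval of the difference stayed within 1 log2 unit, a 2-fold change, to either side. The intervals of Gfap and S100b did not, and in these 2 genes the single eyeballs of each genotype differed most. In whole eyeballs, fewer cells of a type and less RNA per cell cannot be told apart.

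**Figure D1:**
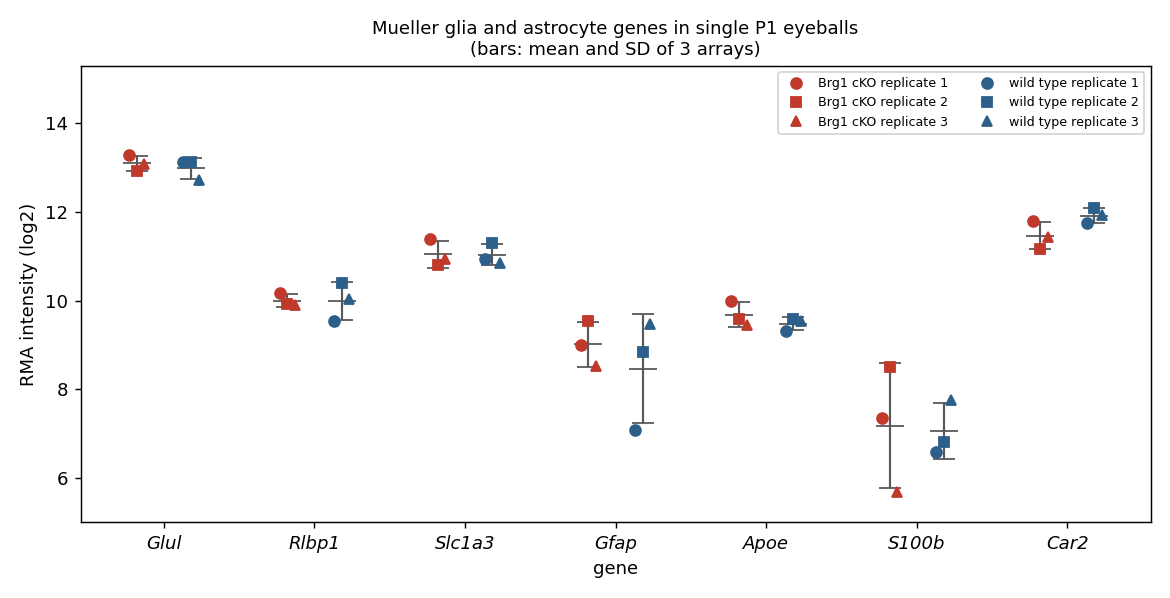
RMA intensity (log2, vertical axis) of the 7 measured genes in each array, with Brg1 cKO on the left and wild type on the right of each pair, a point per array and the group mean with its SD (n = 3). The genotypes overlap in every gene, where 14.8% of all genes do not overlap. The spread is widest in Gfap (wild-type SD 1.24) and S100b (Brg1 cKO SD 1.41).

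The arrays resembled each other in scale, with median intensities from 180 to 185.5 in Brg1 cKO and from 169.1 to 184.6 in wild type. Brg1 cKO replicate 2 stood apart most, with a mean correlation of 0.965 with the other arrays across probe sets, where the others reached 0.974 to 0.979. Xist, the transcript of the inactive X chromosome, marked Brg1 cKO replicate 1 as male and the 5 other eyeballs as female. The targeted gene, Smarca4, differed by 0.18 (SE 0.19) at its brighter and by -0.70 (SE 0.30) at its dimmer probe set, so that it does not check the labels. Lens markers were lower in the mutants, with a summed intensity of 12 genes of 22007 to 75421 in Brg1 cKO eyeballs, against 122549 to 136370 in wild-type eyeballs.

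Glul and Slc1a3 form the glutamate cycle of Müller glia and astrocytes. Slc1a3, the glutamate transporter GLAST, takes glutamate up, and Glul, glutamine synthetase, turns it into glutamine. Glul read 13.28, 12.93 and 13.07 in Brg1 cKO replicates 1 to 3, against 13.12, 13.12 and 12.71 in wild-type replicates 1 to 3 (log2 intensity). Means were 13.10 ± 0.17 in Brg1 cKO and 12.98 ± 0.24 in wild type (SD, n = 3), a difference of 0.11 (SE 0.20, 95% interval -0.35 to 0.57, limma adjusted p = 0.921). Its mean lay at the 98.9th percentile of all probe sets. The dimmer Glul probe set, at 9.36 ± 0.45 in Brg1 cKO and 9.19 ± 0.14 in wild type, differed by 0.16 (SE 0.25).

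Slc1a3 read 11.38, 10.80 and 10.94 in Brg1 cKO eyeballs, against 10.94, 11.30 and 10.85 in wild-type eyeballs. The means were nearly equal, with a difference of 0.01 (SE 0.22, 95% interval -0.51 to 0.53), or 1.01-fold with an interval of 0.701 to 1.45. Of its other probe sets, one differed by 0.09 (SE 0.19). The dimmest, at the 32.3rd percentile of the array, read 5.31, 4.51 and 6.10 in Brg1 cKO, against 6.68, 5.56 and 6.18 in wild type, a difference of -0.83 (SE 0.44, limma adjusted p = 0.705). This probe set overlapped between genotypes as well, and its direction was not shared by the brighter ones.

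Of 13 other genes of glutamate and glutamine handling that were measured, 0 passed the test in either direction, and their median difference was 0.06. With 0.694% of all genes called, a count of 0 among 13 genes is near the background. The same holds for each count of 0 in the lists below. The 4 with the smallest p were Slc1a5, a neutral amino acid transporter (0.55, SE 0.20), Slc1a2, the second glial glutamate transporter (-0.71, SE 0.39), Gad2, which makes GABA from glutamate (-0.55, SE 0.43), and Slc38a1, a glutamine transporter (-0.38, SE 0.30). Of the 13 genes, the genotypes did not overlap in Slc1a5 alone, which read 7.77, 7.52 and 7.17 in Brg1 cKO, against 7.06, 6.83 and 6.92 in wild type. Over all genes, 14.8% had genotypes that did not overlap.

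Rlbp1 encodes the retinaldehyde-binding protein CRALBP, which carries visual pigment chromophore in Müller glia and in the retinal pigment epithelium. It read 10.17, 9.92 and 9.90 in Brg1 cKO eyeballs, against 9.53, 10.40 and 10.04 in wild-type eyeballs. The wild-type arrays enclosed all 3 mutant values, and the difference was 0.01 (SE 0.25, 95% interval -0.57 to 0.59). Of 11 measured genes of the pigment epithelium, 0 passed, their median difference was 0.16, and their summed intensity was 21231 to 27000 in Brg1 cKO and 19390 to 21616 in wild type. The smallest p in this list belonged to Rdh5, a retinol dehydrogenase, which differed by 0.48 (SE 0.24). Rpe65, the visual cycle isomerase, chosen after its values were seen, read 3.85 to 4.21 in Brg1 cKO and 3.89 to 4.38 in wild type. Lrat, which esterifies retinol, read 3.42 to 3.88 in Brg1 cKO and 2.95 to 3.68 in wild type. Both lay below log2 4.84, the 25th percentile of all values, which was taken as the low end of the scale. Genes of pigmented cells such as Dct were bright (11.86 to 12.10 in Brg1 cKO and 11.59 to 11.90 in wild type).

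Car2, carbonic anhydrase II, converts carbon dioxide and water to bicarbonate in Müller glia, and also in ciliary and pigment epithelium and in red cells. It was the only one of the 7 genes with a lower mean in the mutants. Car2 read 11.79, 11.17 and 11.44 in Brg1 cKO eyeballs, against 11.75, 12.09 and 11.92 in wild-type eyeballs. Brg1 cKO replicate 1 lay just above wild-type replicate 1, and the other mutant values lay below all wild-type values. The means were 11.47 ± 0.31 in Brg1 cKO and 11.92 ± 0.17 in wild type, 0.731-fold with an interval of 0.517 to 1.03 (log2 -0.45, SE 0.21, limma adjusted p = 0.66). Leaving out Brg1 cKO replicate 1, the one male, gave -0.61 (limma adjusted p = 0.456), and leaving out Brg1 cKO replicate 2 gave -0.30 (limma adjusted p = 0.806).

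The 15 other carbonic anhydrases gave no call, with a median difference of 0.19, and 5 of them read below log2 4.84 in both genotypes on average. Membrane-bound Car14, which Müller glia and pigment epithelium also carry, read 10.12, 9.86 and 9.86 in Brg1 cKO, against 9.23, 9.27 and 9.53 in wild type (0.60, SE 0.18, limma adjusted p = 0.361). Car12, another membrane-bound form, read 8.20, 7.76 and 8.17 in Brg1 cKO, against 8.69, 8.49 and 8.90 in wild type (-0.65, SE 0.20). Both had genotypes that did not overlap, in opposite directions. Car6, the secreted form, differed by 1.13 (SE 0.26) and Car13 by 0.66 (SE 0.24), both also without overlap. The wild-type mean of Car6, 4.15, lay below log2 4.84. Of the 15 genes, 3 lay higher in all mutants than in any wild-type eyeball, where 8.46% of all genes did. Another 2 lay lower in all mutants, where 6.38% of all genes did. Erythroid genes, the markers of red cells in the sample, gave 0 calls among 5 measured, with a median difference of -0.10. Of these, 3 read below log2 4.84 in both genotypes on average, so that the list measures red cells weakly. Its summed intensity was 181 to 585 in Brg1 cKO and 242 to 437 in wild type.

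**Figure D2:**
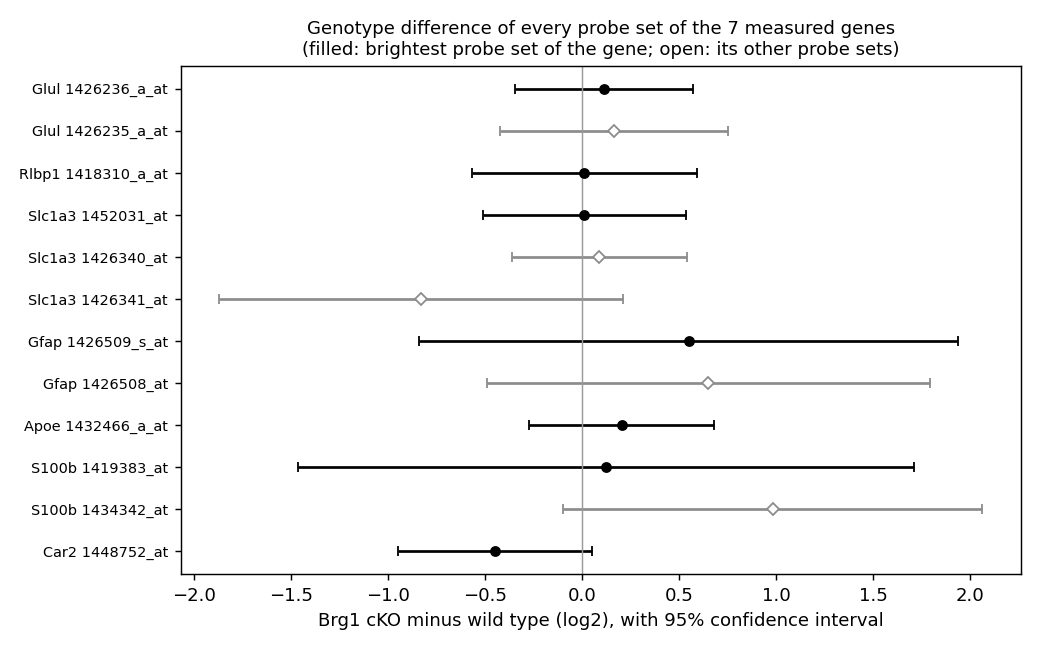
Difference between Brg1 cKO and wild type (log2, horizontal axis) with its 95% confidence interval for the 12 probe sets of the 7 measured genes, where filled points mark the brightest probe set of a gene and open points its others. All 12 intervals include 0, and those of Gfap and S100b are the widest among the filled points.

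Gfap encodes the intermediate filament protein of astrocytes. For the gene that defines gliosis, the start of its transcription unit is shown, because a rise of Gfap in reactive glia is known to run through STAT factors. The RefSeq window for Gfap on the minus strand of GRCm38.p6 (chr11:102897151-102897450) is printed over its first 260 bases, of which 250 precede the annotated start, with a match to the palindromic STAT motif TTCNNNGAA in capitals.
Gfap: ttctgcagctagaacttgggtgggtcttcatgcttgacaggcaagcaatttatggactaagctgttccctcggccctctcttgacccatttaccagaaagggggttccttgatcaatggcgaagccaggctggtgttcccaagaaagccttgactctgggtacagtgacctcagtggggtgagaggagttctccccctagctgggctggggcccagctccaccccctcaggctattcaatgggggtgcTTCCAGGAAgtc
The match covers positions -2 to 7 around the annotated start. Of 32851 such windows of 300 bases, 8.3% held this motif, and among the windows of the 6 measured genes that the table lists, those of Gfap and Slc1a3 did. AACAAT, a SOX motif searched on both strands, was in 0 of these windows and in 10.7% of all. Such matches describe letters only.

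Gfap read 8.99, 9.54 and 8.52 in Brg1 cKO eyeballs, against 7.08, 8.85 and 9.47 in wild-type eyeballs. Wild-type replicate 1 lay below all other arrays, and wild-type replicate 3 lay above 2 of the 3 mutants. Means were 9.02 ± 0.51 in Brg1 cKO and 8.47 ± 1.24 in wild type (SD, n = 3), a difference of 0.55 (SE 0.59, 95% interval -0.84 to 1.94, limma adjusted p = 0.864). As a fold this is 1.46 with an interval of 0.558 to 3.83, so that neither a 3-fold rise nor a small fall lies outside it. The second probe set showed the same order of arrays at both ends, with 8.80, 9.31 and 8.84 in Brg1 cKO, against 7.19, 8.59 and 9.23 in wild type (0.65, SE 0.49, limma adjusted p = 0.801). Both probe sets thus read wild-type replicate 1 lowest.

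At the brighter probe set the direction of the Gfap mean rested on wild-type replicate 1. Without that array this probe set differed by -0.14 (SE 0.36), and without wild-type replicate 3 by 1.05 (SE 0.56, adjusted p = 0.871). The dimmer probe set was not fitted with arrays left out. Its Brg1 cKO mean, 8.98, lay between wild-type replicates 2 and 3 (8.59 and 9.23). The SD of Gfap over the wild-type arrays lay at the 99.5th percentile of all genes. The genes whose centred profile over the 6 arrays came closest to that of Gfap were Cox8b, a cytochrome oxidase subunit of muscle and brown fat, with a root mean square difference of 0.26, and Nfkbil1, with 0.34. Skeletal muscle genes, which mark extraocular muscle on the eyeball, had summed intensities of 25665, 62871 and 51629 in Brg1 cKO eyeballs, against 34592, 34250 and 54913 in wild-type eyeballs. Brg1 cKO replicate 2 and wild-type replicate 3 were highest for both this sum and Gfap, while Brg1 cKO replicate 3 had a high sum and the second lowest Gfap value, and wild-type replicates 1 and 2 had nearly the same sum and unlike Gfap values. Of these 10 genes 0 passed, with a median difference of 0.18. The part of attached tissue in the Gfap values was not tested.

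S100b, a calcium-binding protein of astrocytes and of Schwann cells, varied even more among the mutants. Its brighter probe set read 7.35, 8.50 and 5.69 in Brg1 cKO eyeballs, against 6.59, 6.81 and 7.77 in wild-type eyeballs. Brg1 cKO replicates 2 and 3 were the highest and the lowest of all arrays. The difference was 0.12 (SE 0.68, 95% interval -1.47 to 1.71, limma adjusted p = 0.977), with values of -0.54 when Brg1 cKO replicate 2 was left out and 0.87 when Brg1 cKO replicate 3 was. The dimmer probe set read 7.31, 7.36 and 6.39 in Brg1 cKO, against 5.05, 6.49 and 6.59 in wild type, a difference of 0.98 (SE 0.46, 95% interval -0.10 to 2.06, limma adjusted p = 0.659). In this probe set wild-type replicate 1 was the lowest array, as in Gfap, and in the brighter one it was the second lowest.

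The genes closest to S100b in profile over the 6 arrays were Bmp4, a growth factor of the eye and its mesenchyme, with a root mean square difference of 0.15, and Timp4, an inhibitor of matrix proteases, with 0.34. Of 8 measured Schwann and oligodendrocyte lineage genes, 0 passed, with a median difference of -0.11 and a summed intensity of 8472 to 9649 in Brg1 cKO and 9002 to 10875 in wild type. The 4 with the smallest p had lower means in the mutants and overlapped, namely Mag, a myelin protein, at -0.40 (SE 0.20), Erbb3, the neuregulin receptor of Schwann cells, at -0.73 (SE 0.46), Egr2, a factor of myelination, at -0.49 (SE 0.49) and Pmp22, a myelin protein of peripheral nerve, at -0.14 (SE 0.17). Sox10, their defining factor, read 7.65, 8.18 and 7.24 in Brg1 cKO, against 8.31, 7.76 and 7.21 in wild type, without a shift between genotypes beyond its spread (-0.07, SE 0.34). It was chosen after its values were seen. Mag, with means of 2.85 in Brg1 cKO and 3.25 in wild type, lay below the low end of the scale.

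**Figure D3:**
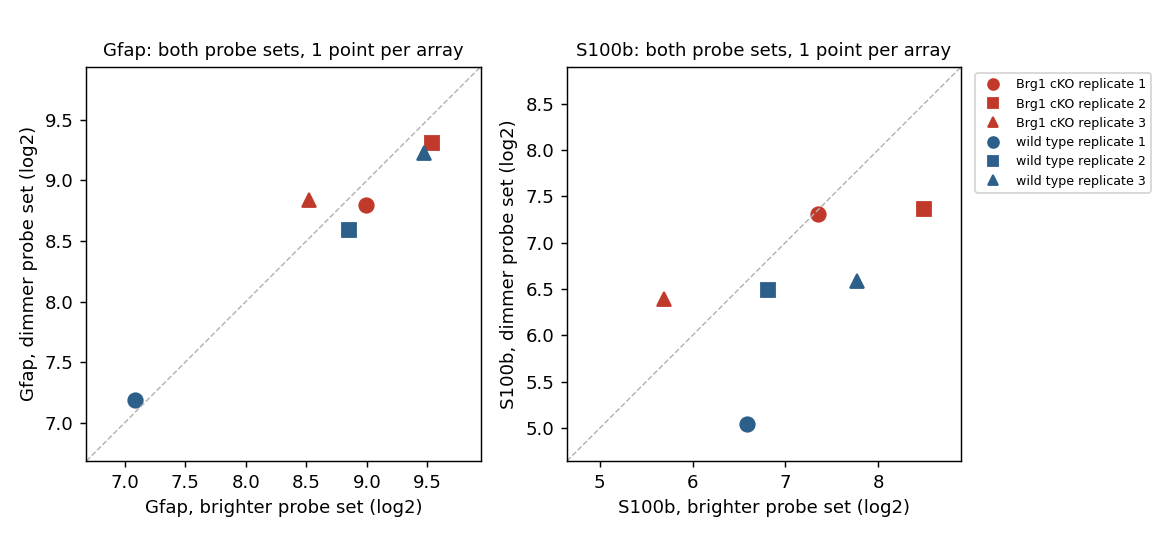
Intensity of the dimmer probe set (log2, vertical axis) against the brighter probe set (log2, horizontal axis) of Gfap and of S100b, 1 point per array, with a dashed line where both are equal. Both Gfap probe sets place wild-type replicate 1 lowest, at 7.08 and 7.19, while the S100b probe sets order the arrays differently.

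Apoe, apolipoprotein E, packs lipid for transport between glia and neurons and is also abundant in macrophages. It read 9.997, 9.60 and 9.45 in Brg1 cKO eyeballs, against 9.31, 9.59 and 9.54 in wild-type eyeballs. Brg1 cKO replicates 1 and 2 lay above the highest wild-type value (replicate 2 barely) and replicate 3 within the wild-type range, with a difference of 0.20 (SE 0.20, 95% interval -0.27 to 0.68, limma adjusted p = 0.853). Of 16 other genes of apolipoproteins and lipid transport that were measured, 0 passed and the median difference was 0.08. Their summed intensity was 8587 to 10997 in Brg1 cKO and 6169 to 7989 in wild type. Of these genes, 3 lay higher in all mutants, where 8.46% of all genes did, and 0 lay lower, where 6.38% did. Apod, an apolipoprotein of glia and skin, read 10.41, 11.15 and 10.82 in Brg1 cKO, against 9.20, 8.40 and 9.99 in wild type (1.60, SE 0.40, limma adjusted p = 0.246). Apoc2, Abca1 and Lrp1 differed by 1.40 (SE 0.46), 0.96 (SE 0.38) and 0.68 (SE 0.28). The wild-type mean of Apoc2, 4.79, lay just below the low end of the scale.

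Markers of macrophages and microglia lay higher in the mutants without passing the test. Of 14 measured genes 0 passed, but all 14 differences were positive, with a median of 0.62, and the genotypes did not overlap in 8, all higher in Brg1 cKO, where 8.46% of all genes were apart in this direction. This list was chosen with earlier results of these data known, so that the counts are description only. Its summed intensity was 4260 to 8754 in Brg1 cKO and 2691 to 3799 in wild type. Ptprc, a leukocyte phosphatase, read 6.16, 7.88 and 7.16 in Brg1 cKO, against 4.55, 4.23 and 5.16 in wild type (limma adjusted p = 0.099). Cd68, Tyrobp and Aif1 differed by 1.06 (SE 0.20), 1.66 (SE 0.41) and 1.17 (SE 0.31). The part of macrophages in the Apoe values was not tested.

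Genes that share the cells of the 7 were examined next. Of 19 other Müller glia genes, 0 passed, the median difference was -0.13, and 13 differences were negative. With 0.694% of all genes called, a count of 0 among 19 genes is near the background. Sox2, a transcription factor of progenitors and Müller glia, read 9.65, 9.34 and 10.09 in Brg1 cKO, against 10.22, 10.42 and 10.30 in wild type (-0.62, SE 0.22, limma adjusted p = 0.507). It was the only gene of this list whose genotypes did not overlap, beside 14.8% of all genes. Kcnj10, the potassium channel of Müller glia, differed by 0.57 (SE 0.27), the transcription factor Nfia by -0.57 (SE 0.33) and the opsin Rgr by -0.42 (SE 0.25). The water channel Aqp4, chosen after its values were seen, read 4.73, 6.40 and 4.34 in Brg1 cKO, against 5.86, 5.52 and 6.02 in wild type.

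Astrocyte and optic nerve genes also gave 0 calls among 15 measured, with a median difference of -0.13, but 4 of them lay lower in all mutants than in any wild-type eyeball, where 6.38% of all genes did, and 1 lay higher, where 8.46% of all genes did. Aldoc, a glycolytic aldolase of astrocytes, read 8.56, 8.56 and 8.12 in Brg1 cKO, against 9.51, 9.75 and 10.10 in wild type. Its difference was -1.37 (SE 0.23, limma adjusted p = 0.0643). Fgfr3, an FGF receptor of glia and also of the lens, read 6.96, 7.76 and 6.88 in Brg1 cKO, against 8.38, 8.94 and 8.55 in wild type (-1.43, SE 0.28, limma adjusted p = 0.126). Aldh1l1, a folate enzyme used as a marker of astrocytes, read 5.54, 4.96 and 5.06 in Brg1 cKO, against 5.59, 6.68 and 6.80 in wild type (-1.17, SE 0.35). Gjb6, the astrocyte connexin 30, was the gene that lay higher, with 3.77, 4.298 and 3.77 in Brg1 cKO, against 3.54, 3.35 and 3.28 in wild type (0.55, SE 0.21, limma adjusted p = 0.525), all below the low end of the scale. Gja1, which encodes connexin 43, was the fourth of the lower genes, at -0.15 (SE 0.15), and was chosen after its values were seen. Aldoc passed with array weights (limma adjusted p = 0.046) and with an intensity trend (0.0476), and its adjusted p reached up to 0.266 over the settings tried. Fgfr3 passed with array weights (0.0489) and without Brg1 cKO replicate 2 (0.0277), and reached up to 0.394. Template matching also called Aldoc and Fgfr3, at unadjusted p of 0.00374 and 0.0118, and Aldh1l1 passed in none of these settings. Lens genes had lower values in the same mutants, and which cells gave the Aldoc and Fgfr3 signal was not tested.

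Of the other intermediate filament genes, 0 of 8 passed, and the median difference was 0.20. Vim, the vimentin of Müller glia and astrocytes, differed by 0.06 (SE 0.17) and Nes, the nestin of progenitors and reactive glia, by 0.10 (SE 0.33), both chosen after their values were seen. Prph, the peripherin of peripheral nerve, read 4.91, 5.64 and 5.59 in Brg1 cKO, against 3.90, 3.98 and 4.09 in wild type (1.39, SE 0.23, limma adjusted p = 0.0692), with wild-type values below the low end of the scale. Nefh, the heavy neurofilament, differed by 0.84 (SE 0.27), Nefm, the medium one, by 0.22 (SE 0.21) and Des, the desmin of muscle, by 0.64 (SE 0.60). The wild-type mean of Nefh, 4.46, also lay below the low end.

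Among genes that mark reactive astrocytes in the brain, 3 passed the test. The pan-reactive list holds genes that rise in reactive astrocytes after different injuries, and the lists A1 and A2 hold genes reported after endotoxin and after ischemia. Of the 32 genes of these lists that were measured, 3 rose, 0 fell, and 27 differences were positive, with a median of 0.90. At an adjusted p under 0.05, 0.428% of all genes were higher in Brg1 cKO. In 14 of the 32 genes (43.8%) every mutant value exceeded every wild-type value, a pattern that 8.46% of all genes showed, and in 1 gene, B3gnt5, the order was the opposite. These lists, like the others here, were chosen with earlier results of these data known, so that such shares are description only. Many of these genes are also known from epidermis, fibroblasts and leukocytes, and 8 of the 14 macrophage genes were apart in the same direction. Which cells gave the signal was not tested.

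The 3 genes were Serpina3n, Osmr and Cd14. Serpina3n, a serine protease inhibitor and acute-phase gene, rose to 9.89, 11.45 and 10.31 in Brg1 cKO, against 4.99, 4.74 and 5.57 in wild type (5.46, SE 0.42, limma adjusted p = 0.0036). Osmr, the receptor of the cytokine oncostatin M, rose to 8.49, 9.70 and 8.81 in Brg1 cKO, against 6.53, 6.25 and 7.04 in wild type (2.39, SE 0.35, limma adjusted p = 0.0435). Cd14, the endotoxin co-receptor of myeloid cells that also stands in the A2 list, rose to 9.54, 11.50 and 9.94 in Brg1 cKO, against 4.12, 3.93 and 5.17 in wild type (5.92, SE 0.55, limma adjusted p = 0.00824). Osmr lost its call without any of the wild-type replicates or Brg1 cKO replicate 3 (adjusted p = 0.114 to 0.232), with 16 added before log2 (0.13) and with the replicate block (0.119). Cd14 lost its call without wild-type replicate 1 or 2 (adjusted p = 0.0714 and 0.0564) and with 16 added before log2 (0.0506). Its wild-type mean, 4.41, lay below the low end of the scale.

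Of 12 pan-reactive genes 2 rose, with a median of 0.60. Timp1, a protease inhibitor, and Cxcl10, an interferon-induced chemokine, differed by 2.99 (SE 0.61) and 3.21 (SE 0.72) and did not pass (adjusted p = 0.132 and 0.182). The wild-type mean of Cxcl10, 3.66, lay below the low end of the scale. Of 8 A1 genes 0 passed, with a median of 0.95. Srgn, a proteoglycan of leukocyte granules, differed by 2.63 (SE 0.55) and Gbp2 and Serping1 by 2.15 (SE 0.80) and 0.92 (SE 0.36). Iigp1, an interferon-induced GTPase, read 4.36, 9.07 and 4.35 in Brg1 cKO, against 3.84, 4.32 and 4.07 in wild type, so that its mean rests on Brg1 cKO replicate 2. Of 12 A2 genes 1 rose, with a median of 0.67. Ptgs2, the inducible cyclooxygenase, differed by 2.85 (SE 0.80), Tgm1, a transglutaminase of epidermis, by 1.01 (SE 0.28) and B3gnt5 by -0.71 (SE 0.19).

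**Figure D4:**
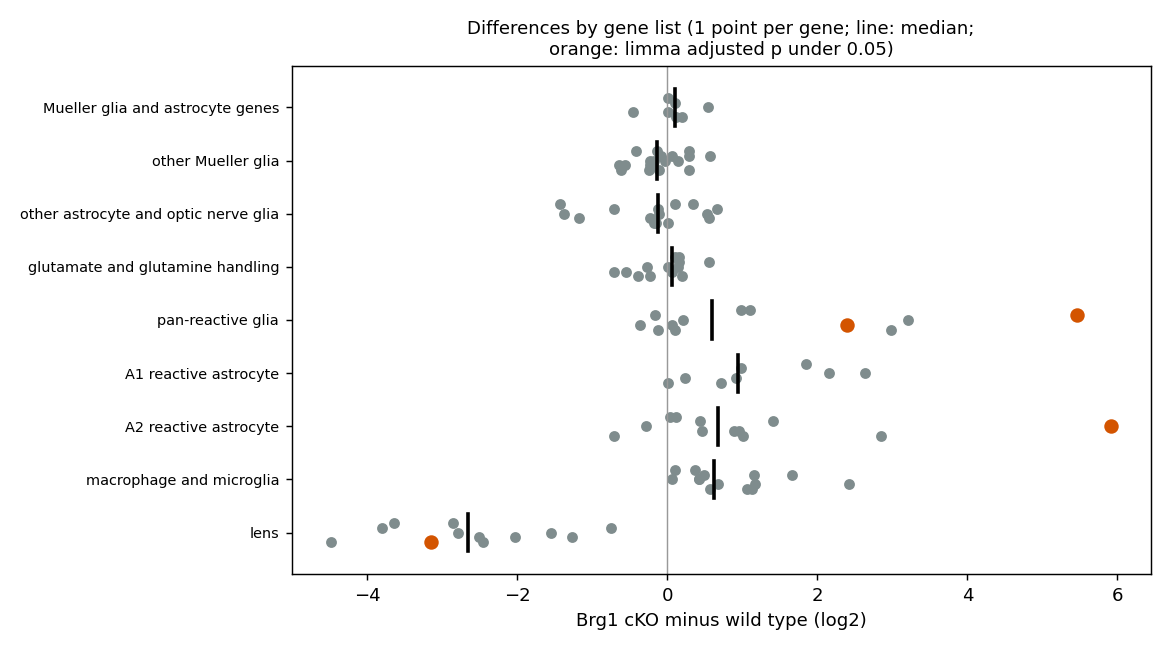
Difference between Brg1 cKO and wild type (log2, horizontal axis) of each gene in 9 lists, with lines at the medians and orange points for genes past an adjusted p of 0.05. Lists of glial genes have medians between -0.13 and 0.11, while single genes of the astrocyte list reach from -1.43 (Fgfr3) to 0.67 (Mlc1). Mlc1 was chosen after its values were seen. The reactive lists have medians of 0.60, 0.95 and 0.67, macrophage genes 0.62 and lens genes a median of -2.65.

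The other tissues of the eyeball give the background to these values. Of 12 measured lens genes, Gja3, a fiber connexin, fell by 3.15 (SE 0.43, limma adjusted p = 0.0319), and all 12 had lower values in each mutant than in each wild-type eyeball. Gja3 lost its call without wild-type replicate 1, 2 or 3 (adjusted p = 0.188, 0.14 and 0.139), without Brg1 cKO replicate 1 or 3 (0.0559 and 0.126), with 16 added before log2 (0.0864) and with the replicate block (0.1). Of 13 genes of retinal neurons and photoreceptors 0 passed, with a median of 0.02. Tubb3, a neuronal tubulin, differed by 0.54 (SE 0.17) and Tfap2a, a factor of amacrine cells and surface ectoderm, by -0.45 (SE 0.19). Of 6 genes listed for the optic stalk and ventral retina, 0 passed, with a median of -0.09. Pax6, which also acts in the lens, stands in this list and differed by -0.33 (SE 0.29). Vax1 read 4.15 to 5.17 in Brg1 cKO and 4.22 to 4.40 in wild type, and Vax2, chosen after its values were seen, 7.67 to 9.55 in Brg1 cKO and 7.94 to 9.56 in wild type. Of 8 control genes such as Actb and Sdha 0 passed, with a median of 0.01.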

How the data were processed

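RNA of 6 single eyeballs was amplified from 50 ng each and hybridised to Affymetrix mouse arrays, 1 per sample. The authors processed the arrays with RMA (background adjustment, normalization between arrays, summary per probe set) and deposited intensities on a linear scale, which were converted to log2 here. RMA narrows global differences and compresses values at both ends of the scale. The version of the RMA software was not stated. The 64 control rows were left out, leaving 22626 probe sets, of which 20380 name 1 gene in the platform annotation, 691 name several and 1555 none.

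Genotypes were compared by genotype alone in limma 3.58.1 (R 4.3.3), with Benjamini-Hochberg adjustment over all probe sets, a two-sided test at an adjusted p of 0.05. The code was tested on simulated data. Exact two-sided permutation tests of the 6 values gave p from 0.2 to 1 for the 12 probe sets, where 3 arrays against 3 allow no less than 0.1. The 18 other gene lists are described by counts and medians. From each, genes past the threshold and up to 4 with the smallest p are named (fewer for red cells, muscle, lens, neurons, optic stalk and control genes), and others are marked as chosen after their values were seen. Members and lists were chosen with earlier results of these data known. Sequences come from RefSeq (GRCm38.p6), which gave promoter windows for 7 of the 8 genes. Samples were grouped by their titles. The number of arrays limits the precision.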

Additional observations from a re-analysis of the deposited data

How the results depend on the processing

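None of the 7 genes was called under any of the 16 other settings, which left out each array in turn, changed the filter, the scale, the normalization, the test, the weights and the probe set of a gene. The number of probe sets called over the whole array was 115, and 32 with 16 added before log2, 45 with the replicate block, 190 with array weights, 820 with template matching, and 24 to 216 with an array left out. The median over the 7 genes, 0.11, reached from -0.11 without wild-type replicate 1 to 0.18 with an array left out.

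Signs of small differences changed. With arrays set to a common median Rlbp1 was at -0.0353 and Slc1a3 at -0.0359, with array weights S100b was at -0.29, and Slc1a3 was at -0.25 for the mean of its probe sets and -0.83 for its dimmest. With an array left out Glul ranged from -0.0243 to 0.19, Rlbp1 from -0.22 to 0.22, Slc1a3 from -0.16 to 0.15, Gfap from -0.14 to 1.05 and S100b from -0.54 to 0.87. Apoe and Car2 kept their sign in all settings. Why the others changed was not tested.

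Deviations of same-numbered arrays from their group means correlated at 0.06, 0.08 and 0.13, and no array correlated best with its own number, so that the numbers were not taken as pairs. With 3 arrays per genotype, the 95% interval reached a median of 0.531 log2 units to either side over all genes.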
